A study of Mus musculus with 2 samples.

Results

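The 35 genes described here encode proteins that copy the chromosomes: those that license and fire replication origins, the helicase, polymerases, clamp and ligase of the fork, the enzymes that make its nucleotides, and factors that supply chromatin behind it. They were taken as a list of symbols, with no cutoff on level but with earlier results of these data known. All 35 were found among 55536 annotated genes. Of these, 10 belong to origin licensing, 6 to activation of the helicase, 6 to the polymerases and primase, 5 to the clamp, its loader and the lagging strand, 4 to nucleotide supply and 4 to chromatin and histone supply. The RNA came from heart tissue of male B6CASTF1/J mice, first-generation hybrids of the B6 and CAST strains, aged 10 days and carrying no treatment or engineered allele in the labels. There were 2 libraries of total RNA in 1 group, each from 300 ng with ribosomal RNA reduced, strand kept and ERCC control RNAs added, and they are called replicate 1 and replicate 2 as in the labels. The males have separate numbers but share a donor record, so the spread given below is that between these 2 samples and may be technical. With 1 group the design holds no comparison between conditions, and no test was possible. The levels of the genes, the balance among them, their transcripts, and the difference between the libraries are described.

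An origin is licensed when the origin recognition complex, Cdc6 and Cdt1 load the ring of Mcm2 to Mcm7 onto DNA, and it fires when Cdc45 and the GINS complex join that ring to form the active helicase. Polymerase alpha with primase then starts each strand, polymerases delta and epsilon extend it on the sliding clamp Pcna, and Fen1 and Lig1 join the fragments of the lagging strand. Most of these genes are targets of E2F transcription factors and are expressed mainly in cells that enter S phase. In the mouse heart, cardiomyocytes go through a last round of DNA synthesis in the first weeks after birth that often ends without cell division, while fibroblasts, endothelial cells and other cells of the heart still divide.

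The total expected count, the number of reads assigned with shared reads divided among genes, was 38851510 in replicate 1 and 37907582 in replicate 2. The general and ventricular cardiomyocyte markers were all detected, led by Myh6 at 8595 and 8333 TPM, a transcript level scaled for length and depth. Most of that list, Myh6 included, is not particular to the ventricle. The libraries differed in other tissue: atrial markers summed to 1518 and 277 TPM, and adipocyte markers to 437 and 31.7 TPM. None of 8 thymocyte markers reached 1 TPM in both libraries, and of 8 erythroid precursor markers 4 did. The highest of these was Tfrc at 75.01 and 102 TPM, which dividing cells of many types also express, followed by Alas2 at 63.4 and 62.5 TPM, while Klf1 (0.07 and 0.09 TPM) and Gata1 (0.04 and 0.02 TPM) were near 0.

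The sequences just before and after the gene starts show what the rule did not use. RefSeq (GRCm38.p6, the coordinates of mm10) gave promoters of 250 bases before and 50 after the start for 28 of the 35 genes, 33 promoters in all, and the table used here had none for Pole, Mcm4, Gins1, Prim2, Gins4, Gmnn and Gins2. The words searched, on both strands, were 4 forms of the E2F site (TTTCCCGC, TTTGCCGC, TTTCGCGC and TTTGGCGC), the CCAAT box (CCAAT) and TTTGAA, the cell cycle homology word found in many genes of late cell cycle. Below are 30-base windows, 5′ to 3′ on the strand of the gene, for the origin licensing genes with an E2F word and for the clamp loader subunit Rfc3, which has a word at the start itself. Each gene has 1 window, and capitals mark 1 E2F word in it, on either strand.
Orc1 (chr4:108579416-108579445, plus): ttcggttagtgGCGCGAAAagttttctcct
Cdc6 (chr11:98908002-98908031, plus): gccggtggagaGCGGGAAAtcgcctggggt
Cdt1 (chr8:122568035-122568064, plus): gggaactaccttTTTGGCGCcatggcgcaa
Mcm3 (chr1:20820275-20820304, minus): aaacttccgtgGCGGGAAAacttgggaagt
Mcm5 (chr8:75109345-75109374, plus): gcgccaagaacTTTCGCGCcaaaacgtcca
Mcm6 (chr1:128359797-128359826, minus): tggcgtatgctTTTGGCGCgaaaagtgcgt
Mcm7 (chr5:138171849-138171878, minus): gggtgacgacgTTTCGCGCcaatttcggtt
Rfc3 (chr5:151651190-151651219, minus): ctttcgcgctcGCGGGAAAactctactgtc
The core of G and C beside a run of T or, on the opposite strand, of A is set by the words searched. In Mcm5 the word at -153 bases overlaps another, GCGCCAAA, at -149, and in Mcm6 the word at -110 overlaps GCGCGAAA at -106 and is followed by TTTGGCGC at -47. Rfc3 has TTTCGCGC at -10 beside the word at 0, and it stands in lower case in the same window.

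An E2F word was present in the promoters of 13 of the 28 genes (46.4%). The share was 2.60% among 27025 genes with a promoter in the table, and 4.94% among 9056 protein-coding genes detected in both libraries. The 13 were Orc1, Cdc6, Cdt1, Mcm3, Mcm5, Mcm6, Mcm7, Gins3, Pola1, Pold1, Rfc3, Lig1 and Uhrf1. Among 44 other replication genes with a promoter, 25% held the word. The 13 genes held 19 matches between -185 and 39 bases of the start, 11 of them within 100 bases. CCAAT was found in 18 of the 28 genes (64.3%), against 41.1% of all genes, and TTTGAA in 4 (14.3%), against 20.2%. Among detected protein-coding genes the shares were 43.3% for CCAAT and 13.9% for TTTGAA, the latter close to that of the members. Both an E2F word and CCAAT were present in 9 genes, and neither in 6. The median G and C content of the members' promoters was 58.3%, and that of detected protein-coding genes 61.0%. A match is a description of the letters and not evidence of binding, and a promoter without a match says nothing of the factor. For 26 of the 33 promoters the first 40 bases after the RefSeq start were found in an annotated transcript of the gene. The promoters of Mcm5 and Mcm6 were not among these, so the distances given for their words are uncertain.

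**Figure D1:**
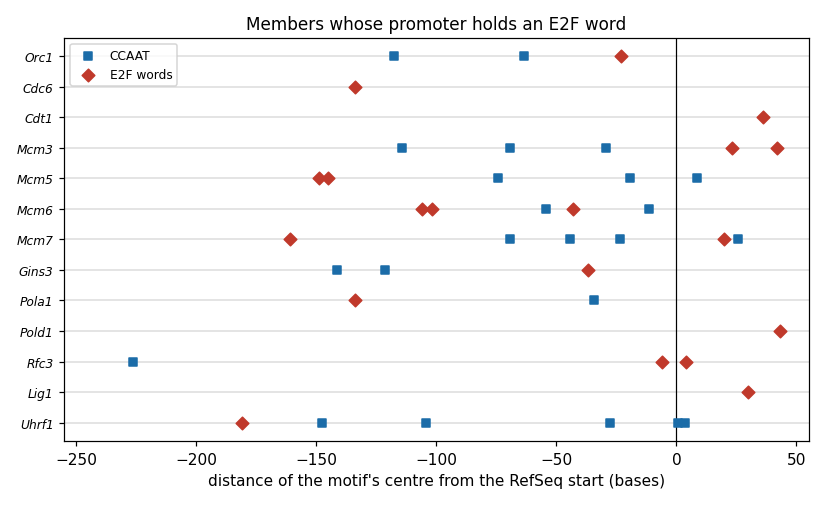
Positions of E2F words (diamonds) and CCAAT boxes (squares) in the 13 members with an E2F word, as the distance of the motif's centre from the RefSeq start in bases; where a gene has several promoters each match is placed relative to its own start. E2F words lie on both sides of the start, and Mcm5 and Mcm6 each show a pair that overlaps.

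The replication genes were present at low to moderate levels. A minimum of 1 TPM in both libraries was passed by 32 of the 35 genes, against 22.9% of all annotated genes and 52.4% of 22028 protein-coding genes. Their median was 6.09 TPM in replicate 1 and 5.20 TPM in replicate 2 (5.65 ± 0.629, SD, n = 2). This was below the median of detected nuclear protein-coding genes (10.3 ± 1.08 TPM). It was above that of all protein-coding genes, detected or not (1.67 ± 0.237 TPM). Together the 35 genes held 279 and 219 TPM, which is 0.0279% and 0.0219% of the total. The range ran from 0.290 ± 0.156 TPM for Orc1 to 28.9 ± 5.23 TPM for Pcna. At a minimum of 5 TPM the number of members was 18, given here without the share of all genes.

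**Figure D2:**
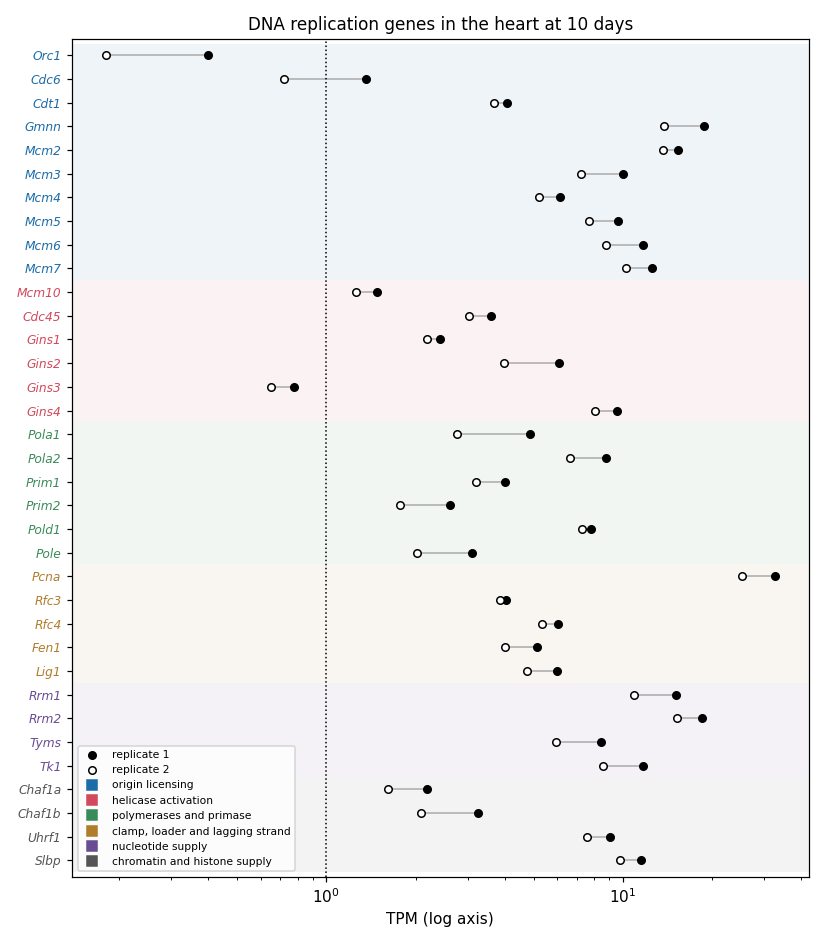
TPM of each of the 35 replication genes in replicate 1 (filled) and replicate 2 (open) on a log axis, with genes grouped and coloured by role and a dotted line at 1 TPM. Pcna, Gmnn, Rrm2 and Mcm2 lie highest, Orc1, Gins3 and Cdc6 lie lowest, and the open circle is to the left of the filled one for every gene.

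In every gene the TPM was lower in replicate 2, but so was that of protein-coding genes as a whole, which summed to 534927 and 475339 TPM. The libraries are therefore compared below by counts scaled with edgeR's TMM factors, and the log2 ratio is replicate 2 over replicate 1. A gene is called lower or higher in replicate 2 where the exact 95% counting interval (Clopper-Pearson) of its ratio leaves out 1. That interval covers counting error only, and a call says that 2 libraries differ, not that animals or conditions do. In RNA from bulk tissue, fewer cells of a type and less RNA per cell cannot be told apart.

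Origin licensing held both scarce and abundant transcripts. Orc1, the largest subunit of the origin recognition complex (chromosome 4, 108579423 to 108614833, mm10), had 30 and 15 counts, or 0.40 and 0.18 TPM. Cdc6, the ATPase that helps to load the helicase (chromosome 11, 98907801 to 98923940), had 116 and 64 counts, or 1.36 and 0.72 TPM. These were the least abundant licensing genes, and replicate 2 was the lower in both. The log2 ratio of Cdc6 was -0.71 (interval -1.18 to -0.26), a 1.64-fold difference, the only one over 1.5-fold among the members with enough counts to be tested. Orc1 had a log2 ratio of -0.84 (interval -1.86 to 0.08), but too few counts to be called. Cdc6 exceeded Orc1 within each library by a log2 ratio of 1.55 (2.92-fold, with 0.1 TPM added to each).

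Cdt1, which brings the Mcm ring to the origin (chromosome 8, 122568015 to 122573554), was at 4.06 and 3.67 TPM. Geminin (Gmnn, chromosome 13, 24751845 to 24761923), the protein that binds Cdt1 and blocks further licensing, was at 18.8 and 13.8 TPM. The inhibitor transcript thus outnumbered that of its target in both libraries, by 4.09-fold (log2 ratio of Cdt1 over Gmnn -2.03 ± 0.22). Between the libraries Cdt1 had a log2 ratio of 0.11, with 245 and 240 counts, and was not called. Gmnn, with 483 and 373 counts, was called lower in replicate 2 (-0.23, interval -0.43 to -0.03).

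The 6 subunits of the helicase ring lay close together. Mcm2 was at 15.3 and 13.6 TPM, Mcm7 at 12.6 and 10.2, Mcm6 at 11.7 and 8.81, Mcm3 at 10.0 and 7.22, Mcm5 at 9.66 and 7.69, and Mcm4 at 6.13 and 5.20. The subunits are present in equal numbers in the ring. Their transcripts spanned 2.5-fold in replicate 1 and 2.62-fold in replicate 2, with Mcm2 highest and Mcm4 lowest in both, and no subunit was over 2-fold from the median of the 6 in both libraries. The means of Mcm3 (8.62 ± 1.97) and Mcm5 (8.68 ± 1.39) differed by less than their spread. From protein-coding transcripts alone Mcm2 was at 11.02 and 8.77 TPM, below Mcm7 (11.4 and 9.54 TPM) in both libraries. In the other deposited quantification the span was 2.53-fold and 2.74-fold, but Mcm7 led there. Mcm3 (745 and 577 counts, log2 ratio -0.23, interval -0.39 to -0.07) and Mcm6 (1021 and 812 counts, -0.19, interval -0.32 to -0.05) were called lower in replicate 2. Mcm2, Mcm4, Mcm5 and Mcm7, at log2 ratios from -0.12 to 0.09, were not called.

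The genes that turn the loaded ring into a helicase had the lowest median of the 6 roles (2.81 ± 0.283 TPM). Cdc45, which bridges the ring (chromosome 16, 18780447 to 18811987), was at 3.59 and 3.03 TPM. Mcm10, a factor needed to open the DNA (chromosome 2, 4989714 to 5012791), was at 1.48 and 1.26 TPM. Cdc45 differed between the libraries by a log2 ratio of 0.03, with 190 and 176 counts. Mcm10 had 67 and 89 counts and was the only member called higher in replicate 2 (0.55, interval 0.08 to 1.03, 1.46-fold). Its TPM had the opposite order, and its leading transcript was Mcm10-206 in replicate 1 and the longer Mcm10-201 in replicate 2. In the other quantification its TPM was 1.67 and 2.29.

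The GINS complex holds 1 copy of each of 4 subunits, yet their transcripts were unequal. Gins4 (chromosome 8, 23226616 to 23237659) was at 9.53 and 8.04 TPM, Gins2 at 6.09 and 3.96, Gins1 at 2.42 and 2.18, and Gins3 (chromosome 8, 95633453 to 95645060) at 0.78 and 0.65. Gins4 lay above Gins3 by 12.2-fold in replicate 1 and 12.4-fold in replicate 2, a span far larger than that of the Mcm ring and of like size in the other quantification (12.4-fold and 12.0-fold). Against the median of the 4, Gins3 was lower at a log2 ratio of -2.19 ± 0.16 and Gins4 higher at 1.25 ± 0.15, while Gins1 and Gins2 were within 2-fold. That median rests in part on Gins2, whose protein-coding transcripts alone held 0.96 and 0.65 TPM. The ratios to the median therefore depend on its non-coding forms. Gins2 (173 and 122 counts) was called lower in replicate 2 at -0.36 (interval -0.71 to -0.02). The other GINS genes, with ratios from -0.16 to 0.10, were not called.

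All 6 polymerase and primase genes were detected, between 2.19 ± 0.594 and 7.72 ± 1.54 TPM. The catalytic subunit of polymerase alpha, Pola1 (chromosome X, 93304767 to 93632155), was at 4.86 and 2.76 TPM. Its partner Pola2 was at 8.81 and 6.63 TPM, and the log2 ratio of Pola1 over Pola2 was -0.85 in replicate 1 and -1.23 in replicate 2. The primase subunits Prim1 (4.02 and 3.19 TPM) and Prim2 (2.61 and 1.77 TPM) lay within 2-fold of each other. Pold1, the catalytic subunit of polymerase delta (chromosome 7, 44532746 to 44548849), stood at 7.79 and 7.29 TPM. Pole, its counterpart in polymerase epsilon and mainly the leading-strand enzyme (chromosome 5, 110286306 to 110337474), stood at 3.09 and 2.02 TPM. Pold1 exceeded Pole in both libraries by 2.94-fold (log2 ratio 1.55 ± 0.35). Pola1 (574 and 419 counts, -0.31, interval -0.50 to -0.13) and Pole (421 and 312 counts, -0.29, interval -0.51 to -0.08) were called lower in replicate 2. Pold1 had a log2 ratio of 0.12, with 444 and 436 counts, and was not called.

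Pcna, the sliding clamp (chromosome 2, 132249162 to 132253314), was the most abundant member. It had 1389 and 1136 counts, or 32.6 and 25.3 TPM, above 80% of detected genes. The clamp loader subunit Rfc3 was at 4.05 and 3.85 TPM and Rfc4 at 6.06 and 5.33 TPM. Pcna exceeded Rfc3 by 7.12-fold (log2 ratio 2.83 ± 0.21). The flap nuclease Fen1 was at 5.13 and 4.00 TPM and DNA ligase 1 (Lig1) at 6.02 and 4.75 TPM, both close to the members' median. Pcna (-0.15, interval -0.26 to -0.03) and Lig1 (527 and 386 counts, -0.31, interval -0.50 to -0.12) were called lower in replicate 2. Rfc3 had the second highest ratio of the members tested, 0.35, from 118 and 136 counts, and its interval from -0.02 to 0.71 held 0.

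Nucleotide supply had the highest median of the roles (11.6 ± 2.57 TPM). Ribonucleotide reductase makes deoxynucleotides, and its large subunit Rrm1 (chromosome 7, 102441695 to 102469771) was at 15.1 and 10.9 TPM. The S phase small subunit Rrm2 (chromosome 12, 24708241 to 24714146) was at 18.5 and 15.3 TPM, and the small subunit used outside S phase, Rrm2b, at 10.7 and 8.57 TPM. The log2 ratio of Rrm2 over Rrm2b was 0.81 ± 0.02, so both small subunits were present at levels within 2-fold. In the other quantification that ratio was 1.43, over 2-fold. The thymidine kinase of S phase, Tk1 (chromosome 11, 117815526 to 117826092), was at 11.7 and 8.57 TPM. Its mitochondrial counterpart Tk2 was at 3.77 and 4.06 TPM, and Tk1 over Tk2 had a log2 ratio of 1.60 in replicate 1 and 1.06 in replicate 2. Thymidylate synthase (Tyms) was at 8.44 and 5.94 TPM. Rrm1 (1627 and 1302 counts, -0.18, interval -0.29 to -0.07) was called lower in replicate 2, and the log2 ratios of Tk1 (-0.20), Tyms (-0.16) and Rrm2 (-0.03) had intervals that held 0.

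The subunits of chromatin assembly factor 1, which places histones on new DNA, were scarce. Chaf1a was at 2.18 and 1.61 TPM and Chaf1b (chromosome 16, 93883901 to 93906115) at 3.24 and 2.09 TPM, within 2-fold of each other in both libraries. Uhrf1, which guides maintenance methylation of DNA (chromosome 17, 56303321 to 56323486), was at 9.04 and 7.57 TPM. Slbp, which binds the stem-loop of replication-dependent histone mRNAs, was at 11.5 and 9.79 TPM. Chaf1b had the largest negative ratio after Cdc6 among the genes called, with 161 and 106 counts (-0.46, interval -0.83 to -0.10, 1.37-fold). Uhrf1 was also called lower (727 and 561 counts, -0.23, interval -0.39 to -0.07), and Chaf1a and Slbp, both at -0.04, were not.

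Of 10 pairs of members or partners set side by side, 5 differed by over 2-fold in the same direction in both libraries: Tk1 over Tk2, Gmnn over Cdt1, Cdc6 over Orc1, Pold1 over Pole, and Pcna over Rfc3. With 1 TPM added in place of 0.1 the pairs of Tk1 and of Cdc6 were no longer counted. The other quantification counted Gmnn over Cdt1, Cdc6 over Orc1, Pold1 over Pole and Pcna over Rfc3 as well, added Pola2 over Pola1 and Rrm2 over Rrm2b, and did not count Tk1 over Tk2.

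The other genes of the process, 52 on a separate list, had levels like those of the members. At 1 TPM in both libraries 49 were detected, at a median of 6.18 ± 0.923 TPM. The highest were the histone chaperone Rbbp4 (56.1 and 49.2 TPM), which is also a part of several complexes that work outside replication, the single-strand binding protein Rpa1 (34.4 and 29.2 TPM), the ribonuclease H2 subunits Rnaseh2c (26.6 and 26.7 TPM) and Rnaseh2a (22.3 and 20.6 TPM), and Nasp, which carries histones (19.4 and 16.5 TPM). Among the lowest were the helicase Recql4 (0.33 and 0.26 TPM), the firing factor Ticrr (0.82 and 0.57 TPM), the alternative loader subunit Dscc1 (1.16 and 0.74 TPM) and Mcm8 (1.2 and 1.31 TPM). Orc2 to Orc6 lay between 3.81 ± 0.0849 and 17.6 ± 1.13 TPM, all above Orc1, the subunit known to vary with the cell cycle.

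Most members had a ratio below 1 between the libraries, by small amounts. Of the 34 members that reached a mean count of 50, 12 (35.3%) were called lower in replicate 2, where 20.6% of all 13211 genes tested were, and 1 (2.94%) was called higher, against 22.3% of all genes. The point ratio was below 1 for 26 of the 34, against 48.7% of all genes. Their median log2 ratio was -0.15, and that of all genes 0.01. Ratios past 1.5-fold with an interval that left out 1 were reached by 6.27% of all genes and by 1 member, Cdc6. Among 8630 protein-coding genes with mean counts in the members' range, 1583 were called lower and 1413 higher, at a median of -0.003. In the other quantification 9 of the 12 lower calls were also made, and those of Gmnn, Gins2 and Chaf1b were not. By total count, 19 members were called lower and 0 higher, where 38.6% of all genes were lower and 11.7% higher.

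**Figure D3:**
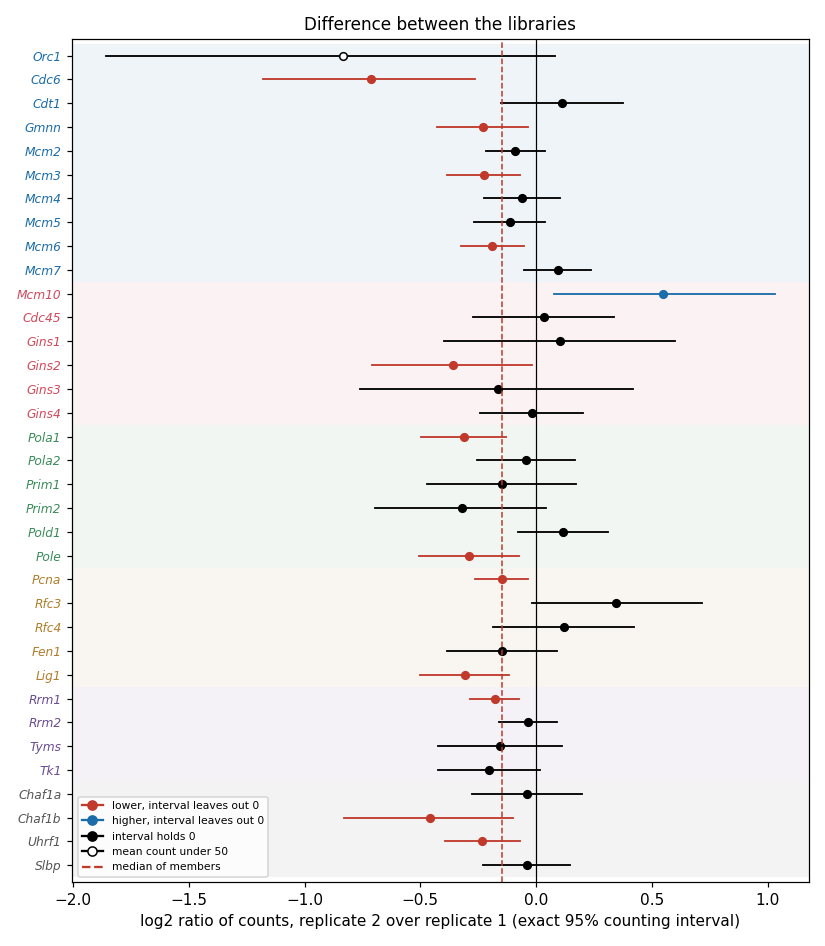
Log2 ratio of scaled counts, replicate 2 over replicate 1, for each of the 35 replication genes, with its exact 95% counting interval; red marks the 12 genes called lower, blue Mcm10, and the dashed line the median of the 34 genes tested. Most points lie to the left of 0, none of the 12 except Cdc6 is past 1.5-fold, and intervals widen for genes with few counts such as Orc1.

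By role, the members called lower were 4 of 9 tested in licensing (Cdc6, Gmnn, Mcm3 and Mcm6), 1 of 6 in helicase activation (Gins2), 2 of 6 in the polymerases and primase (Pola1 and Pole), 2 of 5 in the clamp group (Pcna and Lig1), 1 of 4 in nucleotide supply (Rrm1) and 2 of 4 in chromatin and histone supply (Chaf1b and Uhrf1). The median log2 ratio ran from -0.22 in the polymerases and primase to 0.01 in helicase activation. The 52 other replication genes were spread on both sides: of 50 tested, 7 were called lower and 7 higher, at a median of 0.03. Lower were Asf1b (-0.51), Hells (-0.45), Orc6 (-0.41), Clspn (-0.36), Rfc5 (-0.27), Tipin (-0.27) and Dnmt1 (-0.19). Higher were Pold4 (0.41), Mcm8 (0.38), Mcm9 (0.30), Timeless (0.29), Rfc1 (0.29), Asf1a (0.24) and Dguok (0.22). The difference between the lists was not tested.

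**Figure D4:**
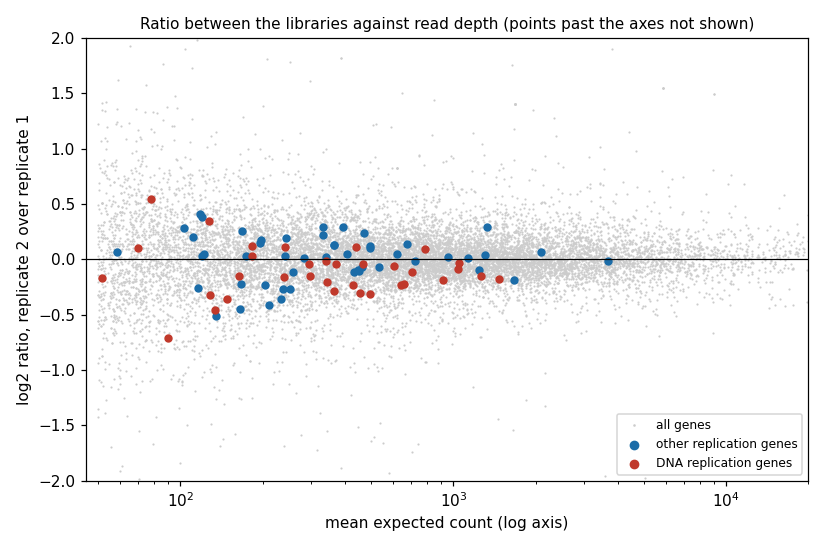
Log2 ratio of scaled counts, replicate 2 over replicate 1, against mean expected count on a log axis, for all genes with a mean count of at least 50 (grey), the replication genes (red) and the 52 other replication genes (blue). The members lie at moderate counts, mostly a little below 0, and the other replication genes lie on both sides of it.

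Markers of several cell types differed between the libraries in the same direction. Lower in replicate 2 were 6 of 6 adipocyte markers tested (median log2 ratio -4.90), 6 of 6 atrial markers (-2.0; Nppa at 753 and 116 TPM), 7 of 8 epicardial and mesothelial markers (-0.83; Msln at 16.1 and 8.10 TPM), 3 of 5 Schwann and neuronal markers (-1.68), 6 of 8 macrophage markers (-0.45; Lyz2 at 14.0 and 10.1 TPM) and 7 of 8 fibroblast markers (-0.39; Col3a1 at 750 and 482 TPM). The summed levels were 43.3 and 23.3 TPM for the mesothelial list, 20.1 and 4.10 for the Schwann and neuronal list, 73.6 and 46.2 for the macrophage list, and 1952 and 1235 for the fibroblast list. Endothelial markers (4 of 8 lower, median -0.07, 1185 and 854 TPM) and mural markers (3 lower and 2 higher of 8, -0.03, 625 and 480 TPM) had medians nearer 0. The mural list was split, with Tagln (-0.72), Myh11 (-0.66) and Acta2 (-0.42) lower and Abcc9 (0.15) and Rgs5 (0.06) higher. General and ventricular cardiomyocyte markers were higher for 5 of 6 and lower for 1 (0.15, 33747 and 31427 TPM). Erythroid precursor markers were higher for 3 of 4 tested (0.44, 146 and 172 TPM). The part of these markers in the ratios of the replication genes was not tested.

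The ratio between the libraries can also be set beside the promoter words. Of 12 tested members with an E2F word, 6 were called lower (median -0.18). Of 15 without it, 3 were called lower and 1 higher (median -0.09). Over all 13211 genes tested, 20.6% were called lower and 22.3% higher, and these were not split by the word. The difference between the members with and without it was not tested. The split by CCAAT gave medians of -0.12 with the box and -0.15 without. Levels overlapped as well, at a median of 6.02 and 4.75 TPM with an E2F word and 8.44 and 5.94 TPM without. Scarce and abundant genes were found on both sides. Orc1, Cdc6 and Gins3 held the word, but so did Mcm7 (12.6 and 10.2 TPM) and Mcm6 (11.7 and 8.81 TPM). Pcna, Rrm2 and Mcm2 lacked it, but so did Mcm10 (1.48 and 1.26 TPM) and Chaf1a (2.18 and 1.61 TPM).

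The transcripts of the members were mostly the protein-coding ones. The 35 genes have 205 annotated transcripts. In the quantification of the gene tables, protein-coding transcripts held a median of 89.9% of a member's TPM and 95.9% of its counts, and in the other quantification a median of 88.8% of TPM. The share of TPM was over 80% in both libraries for 23 members and under 80% in both for 8. The same transcript was the leading one in both libraries and both quantifications for 28 of the 35 genes, and the others were Gmnn, Mcm10, Pola2, Fen1, Lig1, Tyms and Slbp. A protein-coding transcript led throughout in 30 genes.

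**Figure D5:**
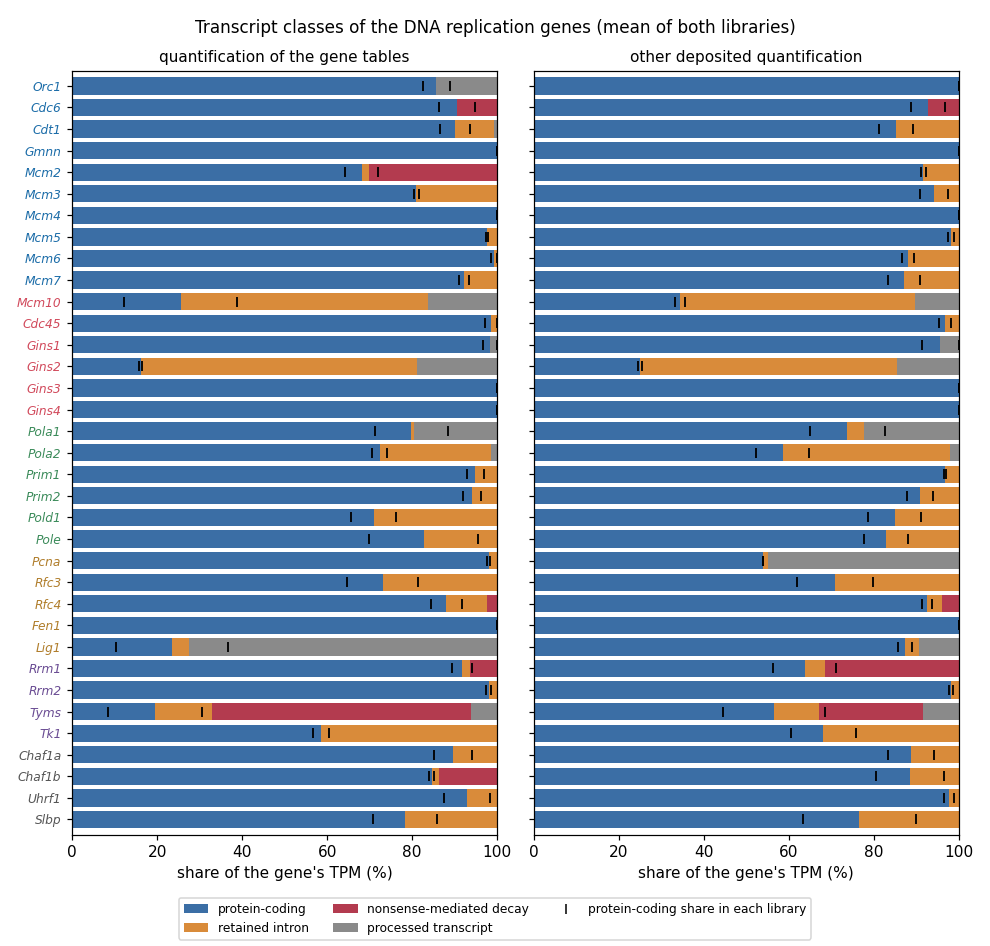
Share of each gene's TPM (%) held by protein-coding, retained-intron, nonsense-mediated decay and processed transcripts, as the mean of both libraries, in the quantification of the gene tables (left) and in the other deposited quantification (right); ticks mark the protein-coding share in each library. Gins2 and Mcm10 have a small protein-coding share on both sides, while Lig1, Tyms, Mcm2, Pcna and Rrm1 differ between the sides.

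Gins2 stood apart in both quantifications. Its leading transcript was Gins2-204, a retained-intron form of 511 bases, with 61.7% and 68.3% of the gene's TPM, and 54.6% and 66.6% in the other quantification. The coding form Gins2-201, of 3900 bases, held 16.1% ± 0.41 of TPM. By counts the order was the other way, with 111 and 79.0 counts for Gins2-201 and 46.7 and 35.7 for Gins2-204, since TPM divides by length. From protein-coding transcripts alone Gins2 would stand at 0.96 and 0.65 TPM, near Gins3, and not at 6.09 and 3.96.

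Short non-coding forms also carried much of the TPM of other members, in Mcm2 on few reads and in Tk1 on more. Mcm2-203, a nonsense-mediated decay form of 273 bases, held 26.9% and 33.3% of the TPM of Mcm2 on 21.7 and 25.3 counts, beside 1091 and 919 counts of the coding Mcm2-201. The other quantification listed Mcm2-203 at 0. In Tk1 the retained-intron form Tk1-203 held 30.3% and 23.9% of TPM, and 25.4% and 10.1% in the other quantification. By counts it had 66.8 and 41.1 of 386 and 304, and the protein-coding share of Tk1 was 69.4% and 73.3% of counts.

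For several genes the quantifications divided the same reads differently. Lig1-207, a processed transcript of 2968 bases, held 51.4% and 52.5% of Lig1 in the gene tables' quantification and 3.6% and 0 in the other, where coding forms held 87.3% ± 2.4. Tyms was led by the nonsense-mediated decay form Tyms-205 (31.9% and 35.2%) in the first, and by the coding Tyms-201 (44.2% and 56.3%) in the other. Pcna-203, a processed transcript of 589 bases, was listed at 0 in the first and held 45.4% and 44.5% of Pcna in the other, where the gene was at 57.9 and 47.7 TPM, 1.82 times the mean above. Geminin was carried by Gmnn-202 in the first (87.9% and 86.6%) and by Gmnn-201 in the other (67.9% and 63.5%), both coding. The isoform shares of these genes are uncertain.

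Near-identical copies and overlapping genes limit some values. No 31-base word of the leading coding transcript was shared with another gene for 21 members, and over 10% of words were shared for 6. The largest shares were 38.0% for Pcna, with the pseudogene Pcna-ps2 (4.36 and 3.88 TPM), and 37.6% for Mcm7, with Gm5487 (0.73 and 0.44 TPM), followed by Uhrf1 (29.4%), Tyms (18.4%), Cdc6 (18.2%) and Rrm2 (15.4%). In all, 17 members overlap another annotated gene, 14 of them one on the opposite strand, and for 8 of these the opposite gene reached 1 TPM in a library: Mcm7, Cdc45, Gins2, Rfc4, Fen1, Lig1, Tk1 and Chaf1a. Gins2 lies opposite Gse1 (14.5 and 13.8 TPM) over 2758 bases and Chaf1a opposite Ubxn6 (21.3 and 20.3 TPM) over 5245 bases. The libraries keep strand, but whether the counting used it is not stated in the sources used here, so the levels of these 8 members are uncertain. Cdt1 lies wholly within Gm20388, a protein-coding gene on the same strand with 99.4 and 316 counts (0.85 and 2.56 TPM), so its level is uncertain whatever strand was used.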

How the data were processed

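Total RNA-seq of mouse heart, 2 libraries of 1 group, was analysed. Per the file headers and deposited notes, the authors quantified each library on mm10 with GENCODE M21, once from transcriptome alignments (gene and transcript tables) and once directly from reads. Program versions are not given in the sources used here, though tables are laid out as by RSEM and kallisto. The deposited files hold expected or estimated counts, TPM scaled by the authors over all rows, spike-ins included, and FPKM, per the file headers, used as an alternative; the deposited posterior standard deviation of the count was read as a check. The reference is B6-based, so reads from CAST alleles may be lost alike in both libraries. The 26248 rows that name no gene held 3.89 and 3 counts and were left out.

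Expected counts were rounded, scaled by TMM factors (edgeR 4.0.16, R 4.3.3), and 0.5 was added; ratios with exact 95% Clopper-Pearson intervals (scipy 1.17.1) were computed for genes with a mean count of at least 50. A floor of 3 counts equals 0.0772 and 0.0791 CPM. The coefficient of variation that edgeR names biological was 0.147 over 16166 genes. It rests on these 2 samples and may hold technical spread. The steps were tested on simulated data, with results not given here. That test does not show that the calls hold in these libraries, because the intervals cover counting error only. Of the 13211 genes tested here, 5666 were called lower or higher. Pairs were ratios of TPM with 0.1 added. The alternatives were DESeq2 1.42.0 size factors, other scalings, count and TPM minimums, pseudocounts, the other quantification, FPKM and each library left out. All 35 members are named; of the other replication genes the pair partners, the 5 highest, the 5 lowest and those called, which goes beyond the rule of the 5 largest ratios (1 gene under this rule is not reported here); of each marker list the highest gene and defining markers under 1 TPM. Orc2 to Orc6, overlapping genes, Alas2 and mural markers below the highest were named after their values were seen. Members and lists were chosen with earlier results of these data known. Protein patterns and identities among Mcm2 to Mcm7 were planned and not run, because no protein table was used here.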

Additional observations from a re-analysis of the deposited data

How the results depend on the processing

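The median TPM of the members, 5.65, was 7.03 in the other quantification, 14.0 when TPM was rescaled over nuclear protein-coding genes, 4.57 as FPKM and 4.56 from protein-coding transcripts only, an alternative chosen after seeing the data; leaving out each library in turn gave 5.20 to 6.09. The members detected, 32 in the main analysis, numbered 34 at 0.5 TPM, 18 at 5 TPM, and 32 to 33 with a library left out. These alternative counts are not set beside the shares of all genes. The members called lower in replicate 2, 12 by TMM, numbered 19 by total count and 1 where a ratio over 1.5-fold was also asked for, and those called higher, 1 by TMM, numbered 0 in either case. Scaling by total count moved the median of all genes from 0.01 to -0.10 and their calls to 38.6% lower and 11.7% higher. The members' median log2 ratio was -0.25 by total count, -0.22 by ERCC counts and -0.20 by nuclear protein-coding genes, against -0.15 by TMM; a scaling shifts all genes alike, and each of these shifts them towards lower than TMM does, so no lower call could be lost by it. In the other quantification 9 of the 12 lower calls were also made, while Gmnn (-0.19), Gins2 (-0.30) and Chaf1b (-0.32) were not called and Tk1 (-0.23) was, for 10 in all. The share of all genes called lower in that quantification is not given here. Mcm10 was not called higher by total count (0.44). Above 0 under all 5 scalings were Cdt1, Mcm10, Pold1, Rfc3 and Rfc4. The pairs over 2-fold, 5 with 0.1 TPM added, numbered 3 with 1 TPM added and 5 to 6 with a library left out. No called result changed direction. No paired analysis was possible because there was 1 group. Depth limits Orc1, Gins3, Mcm10 and Gins1, with under 100 counts in each library. The causes of these changes were not tested.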
